A study of Mus musculus with 18 samples.

Results

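The 10 genes described here encode enzymes that build and modify fatty acids, and were taken by symbol from the count tables: Acly, Acaca, Fasn, Elovl1, Elovl5, Elovl6, Scd1, Scd2, Fads1 and Fads2. All 10 were found among 35976 listed symbols, and all 10 passed the filter on low counts. Polyadenylated RNA was sequenced from 4T1 cells, a mouse mammary carcinoma line of BALB/c origin labelled as triple-negative breast cancer cells. Cells of both arms received 2 µg/ml doxycycline for 6 days to induce a hairpin. Control cells carried a non-silencing hairpin (NSi), and the other arm a hairpin against Dap5 (shDap5). The gene targeted is Eif4g2, and its product DAP5 is a translation initiation factor. RNA came from unfractionated lysate (input) or from pooled light or pooled heavy polysome fractions of a sucrose gradient, with 3 libraries for each arm and fraction, 18 in all. The labels name a single hairpin per arm, and uninduced cells were not analysed here, so differences that predate the hairpin and responses to it cannot be told apart. In such bulk libraries, fewer cells with an mRNA and less of it per cell cannot be told apart either.

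Fatty acid synthesis starts from citrate, which ATP-citrate lyase (Acly) cleaves to cytosolic acetyl-CoA. Acetyl-CoA carboxylase 1 (Acaca) makes malonyl-CoA from it, and fatty acid synthase (Fasn) joins these units into palmitate. Elongases of the endoplasmic reticulum (Elovl1, Elovl5, Elovl6) lengthen fatty acids. The stearoyl-CoA desaturases (Scd1, Scd2) place the double bond of monounsaturated fatty acids, and the delta-5 and delta-6 desaturases (Fads1, Fads2) act on polyunsaturated ones. Transcription of many of these genes is driven by SREBP proteins, the products of Srebf1 and Srebf2, which INSIG proteins hold back in the endoplasmic reticulum. Fatty acid synthesis is often raised in carcinoma cells.

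Levels are given as CPM (counts scaled to library size, with TMM factors between libraries), and the total per library ran from 30385863 to 71331978 counts. Eif4g2 stood at 799, 759 and 852 CPM in NSi inputs and at 592, 340 and 671 CPM in shDap5 inputs, without overlap. On polysomes it fell in shDap5 by 1.60 (light) and 1.45 (heavy) on the log2 scale, and in input its difference of -0.59 missed the test (adjusted p = 0.202). One shDap5 library, input 2, stood apart. It held the lowest Eif4g2 of the inputs and the highest Malat1, a nuclear RNA, at 448 CPM against 289.8 to 325 CPM in the other 5 inputs. Mitochondrially encoded mRNAs took 1.79% of its counts, close to the 1.68% of NSi input 2, against 0.824 to 1.22% in the other inputs. For the 10 enzymes and for the counts of lists, the input results are therefore also given without it, and its part in these results beyond that was not tested. Without it Eif4g2 in input stood at log2 -0.35 (SE 0.25, adjusted p = 0.419). The cells carried luminal epithelial markers (7 of 7 above 1 CPM), with a summed level of 2357 to 2678 CPM in NSi inputs and 3450 to 3993 CPM in shDap5 inputs. On polysomes the luminal sum was also higher in shDap5, at 4727 to 6214 against 2719 to 4073 CPM (light) and at 7382 to 8031 against 5300 to 6904 CPM (heavy). Adipocyte markers, of a cell type rich in these enzymes, summed to 2.87 to 3.57 CPM in NSi and 0.423 to 1.36 CPM in shDap5 inputs, with Lep and Cfd at 0 counts. Over all 6 groups the adipocyte sum did not pass 6.53 CPM. Macrophage markers summed to 20.5 to 61.0 CPM, fibroblast markers to 23.4 to 40.5 CPM and endothelial markers to 9.22 to 12.5 CPM in the inputs. Few genes carried these sums. In the inputs of either arm 4 of 6 macrophage and 6 of 7 fibroblast markers had a mean under 1 CPM. So did 5 (NSi) or 6 (shDap5) of 7 endothelial markers. The part of these markers in the differences below was not tested.

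Scd2 was the most abundant of the 10 mRNAs. Levels between genes were compared per kilobase of exon, as CPM per kb. In NSi inputs Scd2 stood at 143 ± 11.2 CPM per kb (SD, n = 3), followed by Acly at 63.4 ± 2.87, Fasn at 38.4 ± 4.92 and Elovl5 at 34.0 ± 1.90. Elovl1 came next at 26.8 ± 1.07 CPM per kb, then Fads1 at 24.3 ± 0.192, Fads2 at 20.6 ± 0.266, Scd1 at 19.8 ± 2.13, Elovl6 at 13.98 ± 1.201 and Acaca at 3.57 ± 0.385. In this order the libraries of Fasn and Elovl5 overlapped, and so did those of Fads2 and Scd1. The other neighbours did not overlap. In shDap5 inputs Scd2 stayed at the top, at 314 ± 136 CPM per kb, and Acaca at the bottom, at 5.50 ± 1.14. Between them Fads2 took the fourth place, at 40.8 ± 18.03 CPM per kb, and Fads1 the ninth, at 21.5 ± 6.497, with 7 neighbouring pairs overlapping.

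**Figure D1:**
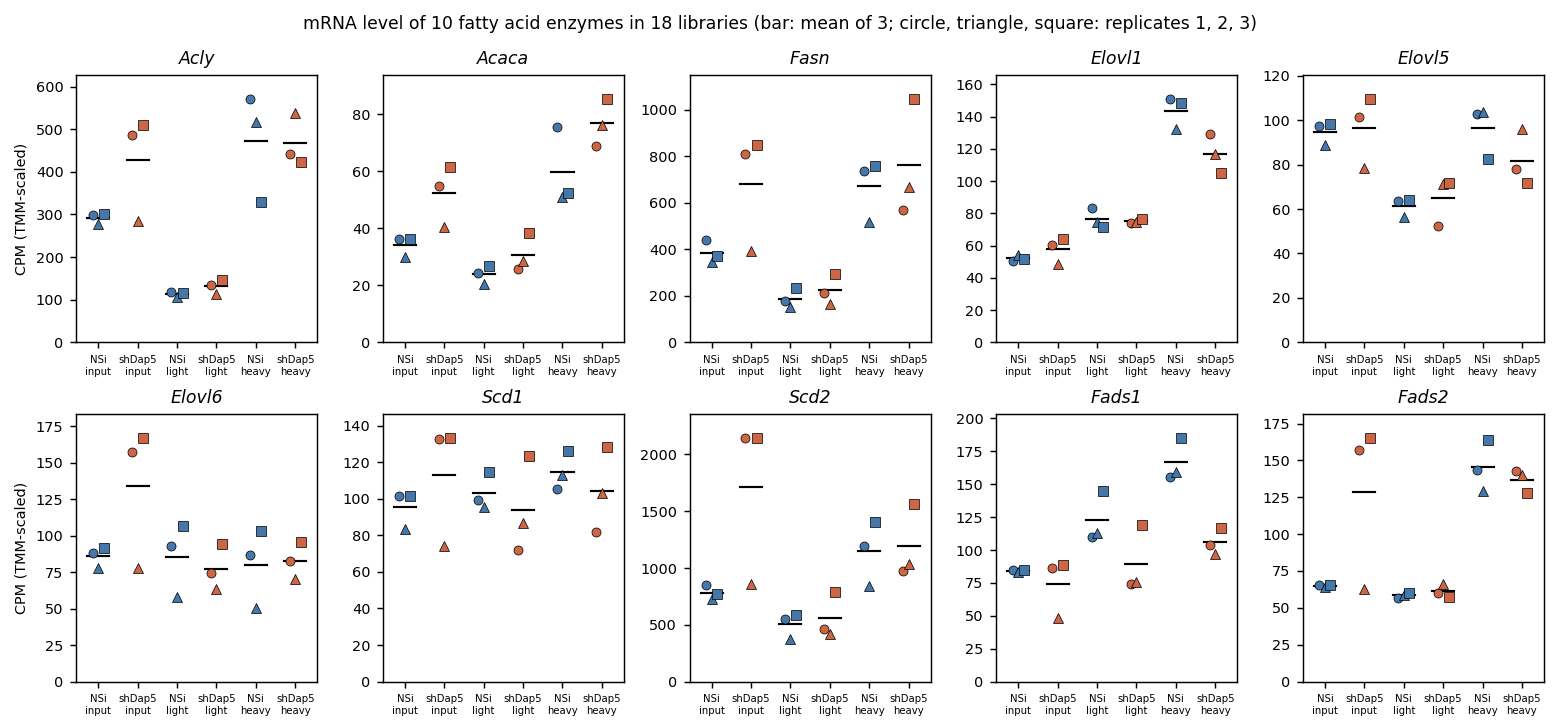
Level of each of the 10 mRNAs in TMM-scaled CPM (linear axis from 0) in every library, by arm and fraction; circles, triangles and squares are replicates 1, 2 and 3, and bars are means of 3. In input, shDap5 replicates 1 and 3 stand above the NSi libraries for all 10 genes, for Fads1 by little. Replicate 2 is the lowest shDap5 input for all 10. The share of all genes placed in this way was not counted.

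Differences in mRNA content were read from the inputs. Fads2 and Scd2 rose in shDap5, about 2-fold, while Fads1, next to Fads2 in function and on the chromosome, did not. In 2 of the 3 shDap5 inputs all 10 mRNAs stood above the range of NSi. The remaining library, input 2, stood above that range for 2 of them (Scd2 and Acaca), within it for 3 and below it for 5. The share of all genes outside that range was not counted, so these counts are a description only. For Fads1 the excess was small, at log2 0.03 and 0.07 over the NSi input of the same number (numbers 1 and 3). The median of all genes tested was 0.06 for both numbers. Of the 10 genes, 2 were called higher and none lower, where 6.95% of all 15072 genes tested were called in either direction and 3.01% higher (called means an edgeR adjusted p under 0.05). The median log2 change of the 10 was 0.59, and that of all genes tested 0.052.

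Fads2 stood at 65.2, 63.9 and 65.4 CPM in NSi inputs 1, 2 and 3 and at 157, 62.9 and 165 CPM in shDap5 inputs 1, 2 and 3. The NSi libraries lay close together, shDap5 1 and 3 lay far above them, and shDap5 2 lay just below. The log2 change was 0.99 (SE 0.24, adjusted p = 0.0153). Scd2 stood at 847, 726 and 771 CPM in NSi and at 2141, 862 and 2144 CPM in shDap5, without overlap. Its log2 change was 1.13 (SE 0.32, adjusted p = 0.0405). Both calls were lost on leaving out any input library other than shDap5 2, with adjusted p of at most 0.11 for Fads2 and 0.192 for Scd2.

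For the enzymes that supply and condense the carbon units, shDap5 inputs 1 and 3 also lay above all NSi inputs. Acly stood at 298, 277 and 301 CPM in NSi and at 488, 284 and 510.45 CPM in shDap5 inputs, with shDap5 2 inside the NSi range. Fasn stood at 441, 345 and 371 CPM in NSi and at 809, 393 and 848 CPM in shDap5, again with shDap5 2 inside that range. Acaca stood at 36.1, 29.8 and 36.1 CPM in NSi and at 55.0, 40.4 and 61.5 CPM in shDap5, and its groups did not overlap. By edgeR none of the 3 was called, at log2 0.55 (SE 0.22, adjusted p = 0.152) for Acly, 0.83 (SE 0.29, adjusted p = 0.107) for Fasn and 0.62 (SE 0.20, adjusted p = 0.0678) for Acaca. DESeq2 called Acaca in input (log2 0.62, adjusted p = 0.0349), beside Fads2 and Scd2.

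The elongases differed among themselves. Elovl6, which takes palmitate to stearate, stood at 88.2, 77.4 and 91.5 CPM in NSi and at 157, 77.8 and 167 CPM in shDap5 inputs (log2 0.64, SE 0.29, adjusted p = 0.219). Elovl1, an elongase of saturated very long chains, stood at 50.3 to 54.4 CPM in NSi and at 60.4, 48.3 and 64.2 CPM in shDap5 (log2 0.15, SE 0.13, adjusted p = 0.62). Elovl5, an elongase of polyunsaturated chains, stood at 88.6 to 98.1 CPM in NSi and at 101, 78.6 and 109.6 CPM in shDap5 (log2 0.03, SE 0.17, adjusted p = 0.96). Within the desaturases, Scd1 stood at 83.6 to 102 CPM in NSi and at 133, 73.9 and 133 CPM in shDap5 (log2 0.25, SE 0.23, adjusted p = 0.627). Fads1 stood at 84.4, 83.4 and 84.6 CPM in NSi and at 86.1, 48.4 and 88.5 CPM in shDap5 (log2 -0.18, SE 0.21, adjusted p = 0.726). Its shDap5 replicates 1 and 3 lay just above the NSi libraries, and replicate 2 lay far below.

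Without shDap5 input 2, which is the input with the least Eif4g2, 6 of the 10 genes rose. Of 15345 genes tested in that fit, 11.2% were called in either direction and 4.66% higher. The 6 were Scd2 (log2 1.46, SE 0.28, adjusted p = 0.0034), Fads2 (1.31, SE 0.13, adjusted p = 1.97e-05), Fasn (1.11, SE 0.27, adjusted p = 0.015), Elovl6 (0.92, SE 0.27, adjusted p = 0.0363), Acaca (0.78, SE 0.20, adjusted p = 0.0194) and Acly (0.77, SE 0.20, adjusted p = 0.0179). The other 4 genes were not called, at 0.48 (SE 0.21, adjusted p = 0.168) for Scd1, 0.26 (SE 0.13, adjusted p = 0.242) for Elovl1, 0.16 (SE 0.17, adjusted p = 0.625) for Elovl5 and 0.06 (SE 0.19, adjusted p = 0.898) for Fads1. The shDap5 inputs left in that fit, 1 and 3, lay close together. Their chi-square ratio to its degrees of freedom was 11.9, against 133 (1 with 2) and 132 (2 with 3). No label says that they are separate cultures, so these SE and p-values may overstate the precision. With all libraries and the replicate number as a block within each fraction the same 6 genes rose, at log2 0.50 (Acly, adjusted p = 0.026) to 1.02 (Scd2, adjusted p = 0.00422), where 22.1% of all genes were called and 11.6% were higher. Between libraries of the same number, the median difference of the 10 genes was 0.66 for number 1, -0.01 for number 2 and 0.77 for number 3 on the log2 scale.

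**Figure D2:**
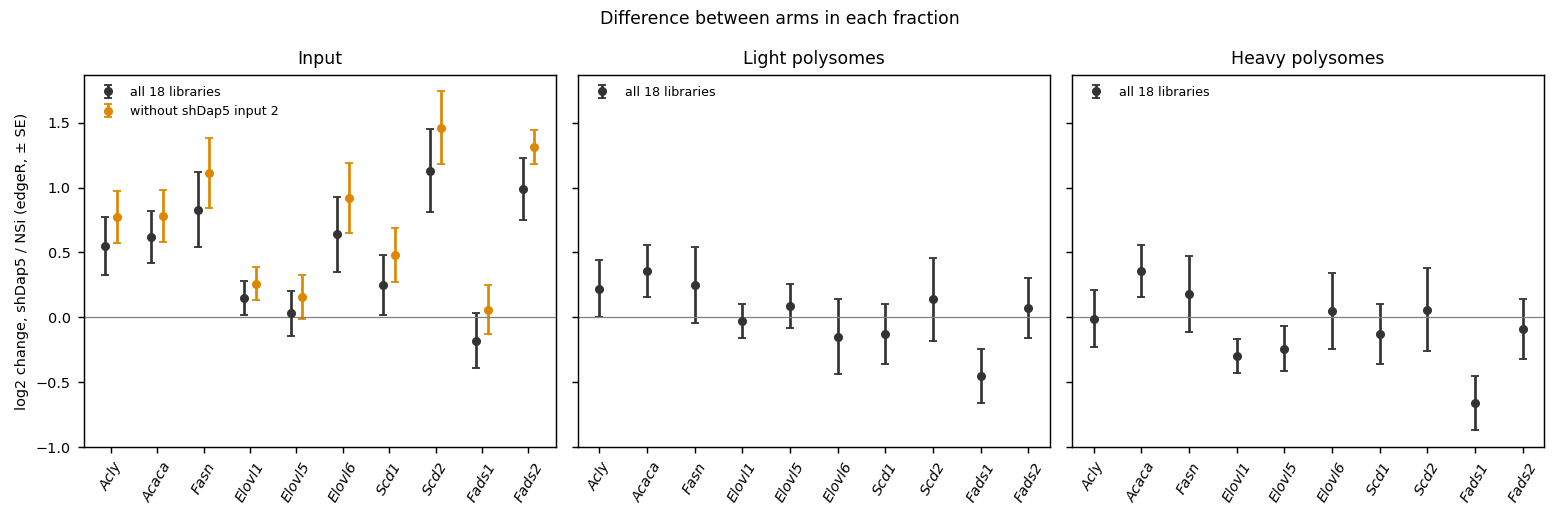
Log2 change of shDap5 against NSi with its SE for each gene (edgeR, 3 libraries per group), in input, light and heavy polysomes; orange points in input leave out shDap5 input 2. Scd2 (1.13) and Fads2 (0.99) lie highest in input, and Fads1 lies lowest in all 3 fractions.

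For the enzymes that rose without shDap5 input 2 and for which RefSeq gives a window, the sequence before the start site is shown. The 250 bases before the start (RefSeq, GRCm38.p6) are printed 5′ to 3′ on the gene's own strand. They were searched on both strands for the core of a sterol regulatory element (TCACCCC), an NF-Y box (CCAAT), a GC box (GGGCGG) and an E-box (CACGTG). Capitals mark the matches. The windows are chr11:120824548-120824797 (minus strand) for Fasn, chr11:100528001-100528250 (minus) for Acly, chr19:10101504-10101753 (minus) for Fads2, chr3:129532136-129532385 (plus) for Elovl6 and chr11:84195188-84195437 (plus) for Acaca.
Fasn: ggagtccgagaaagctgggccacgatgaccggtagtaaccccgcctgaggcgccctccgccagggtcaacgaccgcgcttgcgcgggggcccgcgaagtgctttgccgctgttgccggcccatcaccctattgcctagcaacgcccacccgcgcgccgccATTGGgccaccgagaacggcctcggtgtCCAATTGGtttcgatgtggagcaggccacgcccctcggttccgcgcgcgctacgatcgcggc
Acly: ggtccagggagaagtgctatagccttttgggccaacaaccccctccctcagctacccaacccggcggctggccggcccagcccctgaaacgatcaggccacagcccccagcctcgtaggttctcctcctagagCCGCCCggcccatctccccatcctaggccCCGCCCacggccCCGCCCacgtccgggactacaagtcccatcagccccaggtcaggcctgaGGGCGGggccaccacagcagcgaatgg
Fads2: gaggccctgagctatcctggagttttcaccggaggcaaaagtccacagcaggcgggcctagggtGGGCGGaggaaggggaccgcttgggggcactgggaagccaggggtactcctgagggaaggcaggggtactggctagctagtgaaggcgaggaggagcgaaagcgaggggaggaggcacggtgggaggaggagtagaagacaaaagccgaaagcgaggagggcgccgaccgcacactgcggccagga
Elovl6: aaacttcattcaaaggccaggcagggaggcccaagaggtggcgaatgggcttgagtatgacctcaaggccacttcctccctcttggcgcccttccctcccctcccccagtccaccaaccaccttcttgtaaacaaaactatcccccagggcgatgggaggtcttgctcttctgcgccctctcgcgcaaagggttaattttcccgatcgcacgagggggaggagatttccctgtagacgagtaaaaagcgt
Acaca: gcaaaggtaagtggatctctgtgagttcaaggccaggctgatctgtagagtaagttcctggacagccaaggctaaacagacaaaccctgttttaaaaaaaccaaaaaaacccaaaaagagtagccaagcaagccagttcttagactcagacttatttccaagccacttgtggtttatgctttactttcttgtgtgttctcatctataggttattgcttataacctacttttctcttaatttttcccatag
Fasn held 3 NF-Y boxes, of which a pair overlaps 62 and 59 bases before the start. Acly held 4 GC boxes, 27 to 117 bases before the start, Fads2 held 1 GC box, and Elovl6 and Acaca held none of the motifs. The Acaca window had 39.2% G and C, against 56.4% (Elovl6) to 69.2% (Fasn) in the other windows printed. Whether it lies before a start used in these cells was not tested, so it may not show the promoter of Acaca. The table gave 8 windows for 7 of the 10 genes. The sterol element core was in none of the 8 and in 4.31% of the windows of all 32851 entries, the NF-Y box in 3 of the 8 and 33.8% of all, the GC box in 4 of the 8 and 32.7% of all, and the E-box in 1 of the 8 (Elovl5) and 6.02% of all. With 8 windows against a share of 4.31%, finding no sterol element core does not set these genes apart. These are matches of exact letters, so variants of a motif would be missed, and they were not measured as binding.

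On light polysomes, which carry few ribosomes per mRNA, the difference seen for Fads2 and Scd2 in input was not detected. By edgeR none of the 10 genes was called (1 at an unadjusted p under 0.05, and 0 called by DESeq2), where 3.47% of all genes tested were. The median log2 change was 0.08 (all genes -0.015). Fads2 stood at 56.6, 58.6 and 60.01 CPM in NSi and at 59.9, 66.1 and 57.3 CPM in shDap5 light polysomes. The 2 groups overlapped, and the log2 change was 0.07 (SE 0.23, adjusted p = 0.937). Scd2 stood at 550.0, 375 and 589 CPM in NSi and at 461, 423 and 787 CPM in shDap5 (log2 0.14, SE 0.32, adjusted p = 0.892). Fasn stood at 178, 153 and 234 CPM in NSi and at 214, 165 and 293 CPM in shDap5 (log2 0.25, SE 0.29, adjusted p = 0.755). In both arms replicate 2 was the lowest and replicate 3 the highest for Fasn.

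Acly stood at 117, 106 and 115 CPM on NSi and at 135, 112 and 146 CPM on shDap5 light polysomes (log2 0.22, SE 0.22, adjusted p = 0.70). Acaca stood at 20.5 to 26.9 CPM in NSi and 25.6 to 38.2 CPM in shDap5 (log2 0.36, SE 0.20, adjusted p = 0.401). The 3 elongases and Scd1 lay between -0.15 (Elovl6) and 0.09 (Elovl5) on the log2 scale, with groups that overlapped. Fads1 had the largest difference of the 10, at 110.3, 113 and 145 CPM in NSi and 73.9, 75.7 and 119 CPM in shDap5 (log2 -0.45, SE 0.21, adjusted p = 0.307). For each of the 3 replicate numbers Fads1 was lower in shDap5, by -0.58, -0.57 and -0.28 on the log2 scale. With the block within fraction it fell (log2 -0.48, SE 0.14, adjusted p = 0.0286), where 16.1% of all genes were called and 7.5% were lower.

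On heavy polysomes, which carry many ribosomes per mRNA, Fads1 was again the gene with the largest difference, and Fads2 and Scd2 lay close to NSi. By edgeR none of the 10 genes was called (2 at an unadjusted p under 0.05, and 1, Fads1, called by DESeq2), where 3.95% of all genes tested were. The median log2 change was -0.05 (all genes 0.014). Fads1, the delta-5 desaturase, stood at 156, 159 and 185 CPM in NSi and at 104, 96.6 and 117 CPM in shDap5. The groups did not overlap, and the shDap5 mean was 0.635 of the NSi level. The log2 change was -0.66 (SE 0.21, adjusted p = 0.104). The difference by replicate number was -0.59, -0.72 and -0.66 on the log2 scale. With the block within fraction Fads1 fell (log2 -0.66, SE 0.14, adjusted p = 0.00453), where 18.3% of all genes were called and 8.01% were lower.

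Fads2 stood at 144, 129 and 164 CPM on NSi and at 143, 140.3 and 128 CPM on shDap5 heavy polysomes (log2 -0.09, SE 0.23, adjusted p = 0.90). Scd2 stood at 1193.5, 838 and 1409 CPM in NSi and at 978, 1037 and 1564 CPM in shDap5 (log2 0.06, SE 0.32, adjusted p = 0.956). Both pairs of groups overlapped. Elovl1 did not overlap between the arms, at 151.0, 132 and 148 CPM in NSi and 129, 117 and 105 CPM in shDap5, and missed the test (log2 -0.30, SE 0.13, adjusted p = 0.255). Acaca had the highest change of the 10, at 75.4, 51.0 and 52.5 CPM in NSi and 68.7, 76.3 and 85.3 CPM in shDap5 (log2 0.36, SE 0.20, adjusted p = 0.367). Fasn (0.18), Elovl6 (0.05), Acly (-0.01), Scd1 (-0.14) and Elovl5 (-0.24) lay between these, each with overlapping groups.

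**Figure D3:**
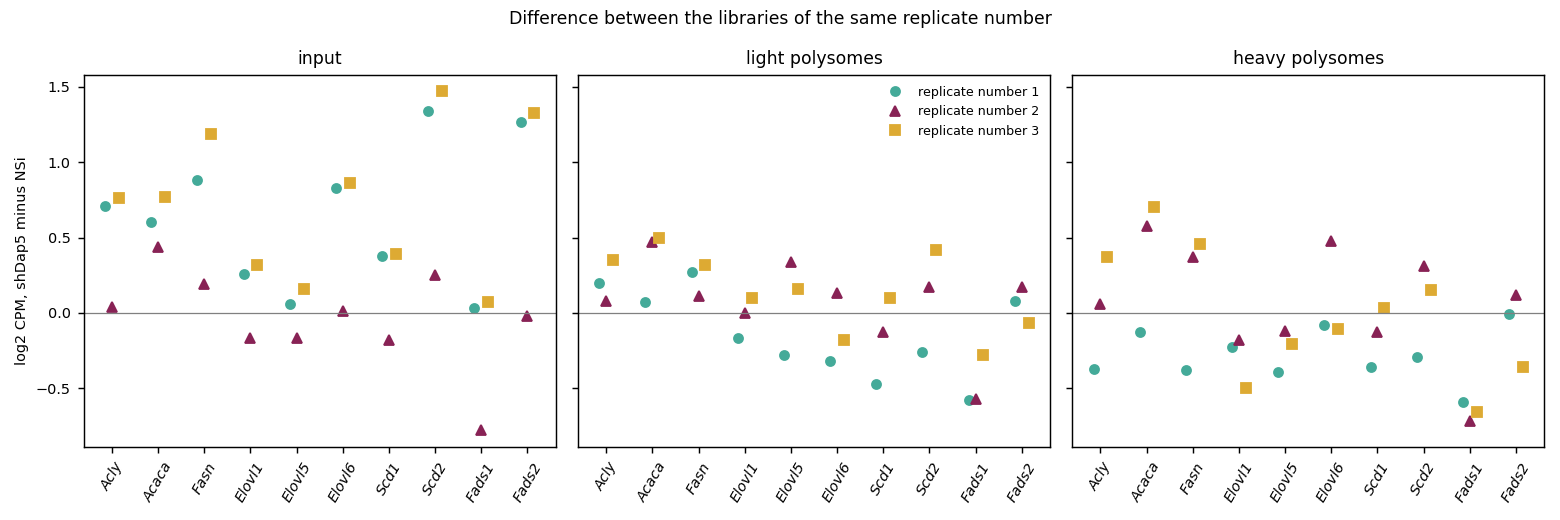
Difference in log2 CPM between the shDap5 and the NSi library of the same replicate number, for each gene and fraction. In input numbers 1 and 3 lie near each other and number 2 lies below them for every gene, while Fads1 lies below 0 for all 3 numbers on light and heavy polysomes.

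Whether the difference between arms on polysomes departed from that in input was tested as an interaction. No gene of the 15072 was called for heavy relative to input (295 at an unadjusted p under 0.05 by edgeR, and 0 called by DESeq2), for light relative to input (320 and 0) or for heavy relative to light (181 and 0). These are fewer genes than an unadjusted p under 0.05 would take if nothing differed, so the interaction tests may be too strict. The lack of calls therefore does not show that no mRNA shifted. For Scd2 the interaction stood at log2 -1.08 (SE 0.45) for heavy and -0.99 (SE 0.45) for light relative to input. For Fads2 it stood at -1.07 (SE 0.33) and -0.92 (SE 0.33). All 10 genes lay below 0 for heavy relative to input, with a median of -0.52 (all genes -0.016), and 9 of 10 for light relative to input, with a median of -0.36 (all genes -0.04). These comparisons share the input libraries, so the counts are not independent of each other. Fads1 was at -0.48 (SE 0.30) for heavy and -0.27 (SE 0.30) for light relative to input. For heavy relative to light the median was -0.12, and Fads1 was at -0.20 (SE 0.30).

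Without shDap5 input 2, Fads2 fell relative to input on heavy (log2 -1.40, SE 0.18, adjusted p = 0.00462) and on light polysomes (-1.25, SE 0.18, adjusted p = 0.00893). In that fit 0.0587% and 0.0521% of all genes were called, 9 and 8 in number, and 0.013% of all genes were called lower in each, 2 in number. None of the other 9 enzymes was among those called. That fit, too, rests on shDap5 inputs 1 and 3, which lay close together. Scd2 then stood at -1.40 (SE 0.39, adjusted p = 0.228) for heavy and -1.31 (SE 0.39, adjusted p = 0.266) for light relative to input. No other fit that leaves out 1 library called an enzyme in these comparisons, and neither did the alternatives that keep all libraries, nor the fits with only the groups compared.

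The position of these mRNAs along the gradient in control cells was read from NSi heavy against NSi light polysomes, where a value is a share of its own library and not an amount of mRNA. Of the 10 enzymes 7 were called higher in the heavy fraction and none lower, where 52.6% of all genes tested were called and 27% were higher. Acly and Fasn had the largest differences of the 10. Acly stood at 117, 106 and 115 CPM on light and at 571, 516 and 328 CPM on heavy polysomes of NSi cells (log2 2.07, SE 0.22, adjusted p = 1.43e-06). Fasn stood at 178, 153 and 234 CPM on light and at 737, 517 and 759.8 CPM on heavy (log2 1.83, SE 0.30, adjusted p = 7.84e-05). Acaca (1.32, SE 0.20), Fads2 (1.32, SE 0.24), Scd2 (1.18, SE 0.32), Elovl1 (0.91, SE 0.13) and Elovl5 (0.65, SE 0.17) also rose, each with groups that did not overlap.

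Elovl6 and Scd1 missed the test. Elovl6 stood at 92.6, 57.9 and 106 CPM on light and at 86.8, 50.5 and 103 CPM on heavy polysomes of NSi cells (log2 -0.10, SE 0.29, adjusted p = 0.793). Scd1 stood at 99.3, 95.4 and 115 CPM on light and at 105, 113 and 126 CPM on heavy (log2 0.15, SE 0.23, adjusted p = 0.591). Whether Scd1 differed from its close relative Scd2 was not tested. Fads1 missed the test (log2 0.44, SE 0.21, adjusted p = 0.0896) and passed it with replicate number as a block (0.45, SE 0.17, adjusted p = 0.0277). That block runs over all 18 libraries and also ties inputs to polysomes of the same number, which were not taken as paired. In shDap5 cells the differences between heavy and light of the same number had means from 0.11 ± 0.08 (SD, n = 3) for Elovl6 to 1.84 ± 0.38 for Acly, against -0.11 ± 0.08 and 2.03 ± 0.45 in NSi. The largest gaps between the means of the arms were those of Elovl5, at 0.34 ± 0.30 in shDap5 and 0.65 ± 0.26 in NSi, and Elovl1, at 0.63 ± 0.17 and 0.91 ± 0.13. As interactions they stood at -0.32 (SE 0.23, adjusted p = 1) and -0.27 (SE 0.19, adjusted p = 1).

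**Figure D4:**
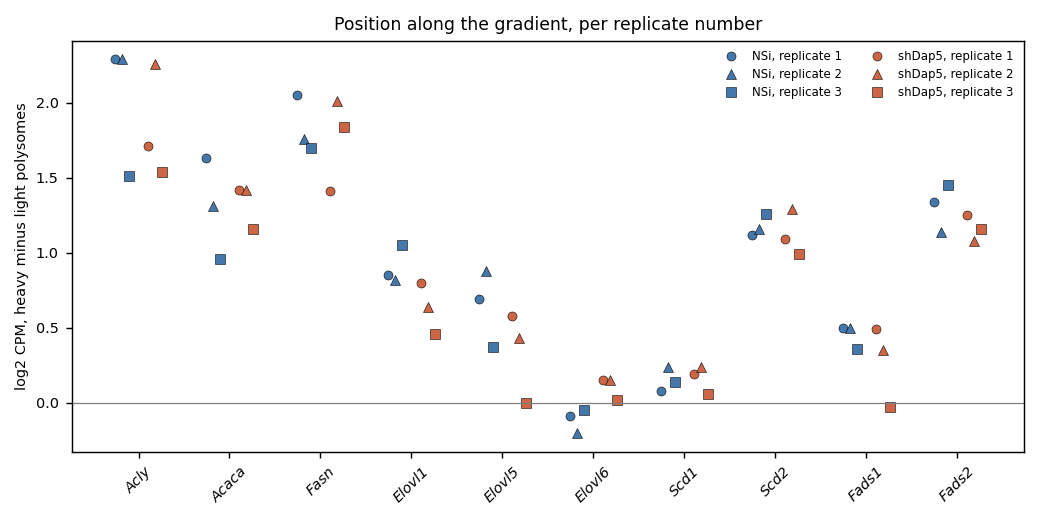
Difference in log2 CPM between heavy and light polysomes of the same replicate number, for NSi (blue) and shDap5 (orange). Acly and Fasn lie highest, and Elovl6 and Scd1 lie near 0. The arms overlap for all genes but Elovl1 and Elovl6. The share of all genes without overlap was not counted, so this is a description only. As edgeR interactions, Elovl1 (log2 -0.27, SE 0.19) and Elovl6 (log2 0.20, SE 0.41) were not called.

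Other genes of lipid metabolism were counted in lists. These were chosen with earlier results of the data known, and their counts are read against the background shares of 3.01% higher and 3.94% lower in input, 1.83% and 1.64% on light and 2.03% and 1.92% on heavy polysomes. Counts without shDap5 input 2 have backgrounds of 4.66% higher and 6.5% lower in input, and counts with the block within fraction 11.6% higher and 10.5% lower in input. Of 23 further tested genes of synthesis, elongation and desaturation, 3 rose and 2 fell in input (median log2 0.26). Elovl7, an elongase, rose from 28.1 ± 0.0842 to 46.2 ± 3.54 CPM (log2 0.72, SE 0.16, adjusted p = 0.00901). Cyb5a, the cytochrome b5 that passes electrons to desaturases, rose from 11.1 ± 0.154 to 24.998 ± 4.97 CPM (log2 1.17, SE 0.29, adjusted p = 0.0182). Hacd1, a dehydratase of the elongation cycle, fell from 11.5 ± 0.913 to 6.51 ± 1.01 CPM (log2 -0.82, SE 0.23, adjusted p = 0.0394). Elovl4, an elongase of very long chains, fell from 24, 39 and 47 counts in NSi inputs to 1, 7 and 0 counts in shDap5 inputs, and was also called lower on both polysome fractions. Cbr4, which is named here only to complete the count, was the third that rose. With the block within fraction 5 of the 23 rose and 3 fell (11.6% and 10.5% of all genes). The call of Hacd1 was lost on leaving out any one input library and that of Cyb5a on leaving out 5 of the 6.

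Of 21 tested genes that control lipid synthesis none was called in input by edgeR (5 at an unadjusted p under 0.05, and 1 called by DESeq2), with a median log2 change of 0.08. Srebf1 stood at 109.9, 104 and 103 CPM in NSi and at 157, 90.1 and 149.98 CPM in shDap5 inputs (log2 0.33, SE 0.23, adjusted p = 0.484). Srebf2 stood at 220.4, 195 and 217 CPM in NSi and at 304, 217 and 309.9 CPM in shDap5 inputs (log2 0.39, SE 0.17, adjusted p = 0.212). Insig1 stood at 102, 79.4 and 70.7 CPM in NSi and at 204, 109 and 168 CPM in shDap5 inputs, without overlap (log2 0.93, SE 0.41, adjusted p = 0.215). The 3 regulators were lowest in shDap5 input 2 of their arm, as the enzymes were. With the block within fraction 6 genes of this list rose, Insig1 and Srebf2 among them, and 3 fell (11.6% and 10.5% of all genes). Without shDap5 input 2 none of the 3 was called, at log2 0.55 (SE 0.22, adjusted p = 0.13) for Srebf1, 0.54 (SE 0.17, adjusted p = 0.0542) for Srebf2 and 1.15 (SE 0.45, adjusted p = 0.114) for Insig1. On heavy polysomes Prkaa1, a catalytic subunit of the AMP-activated kinase that phosphorylates acetyl-CoA carboxylase, fell from 63.5 ± 8.53 to 41.4 ± 7.46 CPM (log2 -0.62, SE 0.16, adjusted p = 0.0426), a call lost on leaving out 4 of 6 libraries.

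The cholesterol synthesis genes, which SREBP proteins also drive, also differed by replicate number in input. Of 21 tested, 1 rose in input, Idi1, an isomerase of the isoprenoid steps (2.44 ± 0.251 to 5.77 ± 2.66 CPM, log2 1.24, SE 0.32, adjusted p = 0.0229). This call was lost on leaving out any input library other than shDap5 2, with adjusted p of at most 0.161, and held without shDap5 input 2 (log2 1.57, SE 0.26, adjusted p = 0.000902). The median log2 change was 0.71, and by replicate number it was 0.87, 0.00 and 1.02. Without shDap5 input 2, 13 of the 21 rose (median 0.98), where 4.66% of all genes were higher. With the block within fraction 15 rose (median 0.61), where 11.6% were higher. On light and heavy polysomes edgeR called none (3 and 2 at an unadjusted p under 0.05, and 0 called by DESeq2 in each), with medians of 0.15 and 0.00. The genes with the smallest p there were Ggps1 on light (log2 -0.35, SE 0.14, adjusted p = 0.201) and Hsd17b7 on heavy polysomes (log2 -0.80, SE 0.32, adjusted p = 0.206).

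Among 11 acyl-CoA synthetases and thioesterases, Acsl5, which activates free fatty acids, rose in input from 309.95 ± 15.1 to 541 ± 73.5 CPM (log2 0.80, SE 0.18, adjusted p = 0.0097), a call lost on leaving out 3 of 6 libraries. Acot1, a thioesterase, fell from 2.16 ± 0.148 to 0.292 ± 0.173 CPM in input (log2 -2.85, SE 0.39, adjusted p = 0.000252) and fell on light and heavy polysomes too. Acot2, its mitochondrial relative, fell in input (log2 -1.41, SE 0.41, adjusted p = 0.0468), a call lost on leaving out 5 of 6 libraries. Acot1 and Acot2 are close in sequence, and reads that they share may have been split between them. Of 20 genes of glycerolipid synthesis and acyl remodelling 2 rose and 1 fell in input. Lpcat1, a lysophosphatidylcholine acyltransferase, rose from 51.1 ± 0.268 to 126 ± 37.5 CPM (log2 1.30, SE 0.23, adjusted p = 0.0018). Mboat1 rose from 36.5 ± 0.74 to 66.6 ± 10.1 CPM (log2 0.87, SE 0.16, adjusted p = 0.00312), and Mboat2, a related acyltransferase, fell in input (log2 -1.27, SE 0.26, adjusted p = 0.00526) and on both polysome fractions. Lpcat3, which places polyunsaturated chains into phospholipids, fell on heavy polysomes from 75.2 ± 3.93 to 47.2 ± 2.85 CPM (log2 -0.67, SE 0.16, adjusted p = 0.0249), a call lost on leaving out 5 of 6 libraries.

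Of 23 tested genes of fatty acid oxidation, 3 fell and none rose in input (median log2 -0.10). Cpt1c, a relative of the carnitine acyltransferases, fell from 8.85 ± 0.371 to 2.29 ± 0.526 CPM (log2 -1.95, SE 0.25, adjusted p = 0.000142), and also fell on light and heavy polysomes. Decr1, a reductase for unsaturated chains, fell from 7.81 ± 0.675 to 3.96 ± 1.04 CPM (log2 -0.98, SE 0.19, adjusted p = 0.00352). Slc25a20, the carnitine carrier of mitochondria, fell from 18.6 ± 1.06 to 11.9 ± 1.39 CPM (log2 -0.64, SE 0.15, adjusted p = 0.0147), a call lost on leaving out 3 of 6 libraries. Of 8 tested genes of fatty acid uptake and binding, Fabp4 fell in input from 2.73 ± 0.271 to 0.504 ± 0.245 CPM (log2 -2.44, SE 0.35, adjusted p = 0.000335). Slc27a1, a fatty acid transporter, rose on light polysomes from 133 ± 8.13 to 238 ± 20.1 CPM (log2 0.83, SE 0.16, adjusted p = 0.0074) and on heavy polysomes from 163 ± 33.8 to 269.88 ± 37.6 CPM (log2 0.73, SE 0.16, adjusted p = 0.0161). Without shDap5 input 2, the input counts were 3 higher and 2 lower for further synthesis genes, 1 and 2 for control genes, 1 and 3 for acyl-CoA genes, 2 and 1 for glycerolipid genes, 0 and 4 for oxidation genes and 2 and 1 for uptake genes, against 4.66% and 6.5% of all genes. Of the genes of these lists named as called in input, Hacd1 (log2 -0.71, SE 0.26, adjusted p = 0.0893) and Cbr4 were not called without that library, and the others were. With the block within fraction, 2 and 3 acyl-CoA genes, 3 and 4 glycerolipid genes, 1 and 4 oxidation genes and 2 and 1 uptake genes were called higher and lower in input, against 11.6% and 10.5% of all genes. On polysomes the calls of Elovl4 (light, 4 of 6 libraries left out in turn, and heavy, 3 of 6), Acot1 (light, 3 of 6) and Slc27a1 (heavy, 3 of 6) were lost in part of the fits that leave out a library, and those of Cpt1c and Mboat2 in none.

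Likeness between genes was described by Pearson r of log2 CPM over the 18 libraries after the mean of each fraction was subtracted, among 10308 genes whose mean reached 5 CPM. The 18 points share arms, fractions and library depth, and no test was made. The genes outside the 10 that were most like Scd2 were Fdps (r 0.949), Fdft1 (r 0.938) and Hmgcs1 (r 0.93), all of cholesterol synthesis. The same 3 genes were most like Fasn, led by Hmgcs1 (r 0.954). Among the genes most like Elovl6 were Nmnat2 (r 0.95) and Fdps (r 0.922). For Fads1 the most alike gene was Lpcat3 (r 0.91), for Fads2 Gcat (r 0.943), for Acaca Anxa6 (r 0.928), for Acly Elp2 (r 0.912), for Elovl1 Cdc45 (r 0.898), for Elovl5 Alg9 (r 0.874) and for Scd1 Pdp2 (r 0.844). Among the 10 enzymes the most alike pair was Scd2 and Fasn (r 0.959), while Fads1 and Fads2 had r 0.217.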

How the data were processed

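Raw counts per gene symbol, 1 table per library, were deposited by the authors. The submitters' processing notes name Bowtie and the build mm9. Which program and annotation made the counts, whether it used strand and how it treated shared reads is not given. Libraries were stranded and polyA-selected, per the labels' protocols. Of the symbols, 27 were written as dates, and none is named. No label says that the replicates are separate cultures. The p-values therefore rest on the spread of these libraries, in part perhaps technical. Replicates of a group differed beyond sampling noise (lowest chi-square ratio to its degrees of freedom 9.57, for NSi inputs 1 and 3). In both arms inputs 1 and 3 were the closest pair, at 11.9 in shDap5. The other pairs of inputs stood at 31.4 to 133.

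Counts were tested with edgeR 4.0.16 in R 4.3.3: TMM scaling, filterByExpr (minimum count 10, minimum total 15), a robust quasi-likelihood F test over all 18 libraries with 1 mean per group (12 residual degrees of freedom, common coefficient of variation 0.227), and Benjamini-Hochberg adjustment over 15072 genes within each of 7 comparisons. Genes are said to be called, to rise or to fall at an adjusted p under 0.05. The SE is the log2 change divided by the square root of F. Differences by replicate number and likeness use log2 CPM with a prior count of 2. CPM per kb uses the union of exons in the GENCODE M21 annotation of GRCm38. On simulated counts for the input comparison, with 15228 genes tested, 56% of 100 genes changed 2-fold and 100% of 100 changed 4-fold were called, beside 9 false calls. The simulation gave every gene the same spread and held no library that stands apart, so these shares need not hold for the real libraries.

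Alternatives were DESeq2 1.42.0, library totals without TMM, no filter, only the groups compared, replicate number as a block, the same within each fraction, and leaving out each library. The titles give replicate numbers. Deviations from group means over 10308 genes correlated between arms for each number within a fraction (0.133, 0.319 and 0.375 in input, 0.555, 0.793 and 0.727 on light, 0.507, 0.76 and 0.826 on heavy polysomes), so numbers were taken to pair libraries there. In input the pairing of numbers 1 and 3 is less clear, as NSi 3 with shDap5 1 gave 0.203 and NSi 1 with shDap5 3 gave 0.075. Light and heavy libraries of an arm were also paired by number (0.511 to 0.763), and inputs were not paired with polysomes. The replicate block over all libraries treats inputs and polysomes as paired all the same.

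The genes, lists, tests and naming rule were chosen with earlier results of these data known. Named were the 10 enzymes, Eif4g2, Srebf1, Srebf2, Insig1 and, of each list in each fraction, up to 4 called genes with the smallest p or, with none called, the gene with the smallest p, and for likeness up to 3 genes per enzyme. Some genes that this rule takes are not reported here.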

Additional observations from a re-analysis of the deposited data

How the results depend on the processing

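The counts of called genes moved with the error model. In input 1047 genes were called, and 1798 with the replicate block, 3330 with the replicate block within fraction and 2218 with only the groups compared. Of the 10 enzymes 2 were called there, and 5 with the replicate block, 6 with the replicate block within fraction, 3 with DESeq2, 1 with no filter and 1 with only the groups compared. On light polysomes the 523 genes became 995 (DESeq2), 1013 (replicate block), 2431 (replicate block within fraction) and 219 (only the groups compared), and on heavy polysomes the 595 became 1050, 1122, 2765 and 56. Of the enzymes, Fads1 alone was called there: 1 on light polysomes with the replicate block within fraction, and 1 on heavy polysomes with DESeq2, 1 with the replicate block and 1 with that within fraction. The block changed no call of an enzyme beyond these, those given in the text for input and that of Fads1 between NSi fractions. The cause of these shifts was not tested.

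Leaving out 1 library gave 486 (without shDap5 input 1) to 1712 (without shDap5 input 2) genes in input, 218 to 393 on light and 252 (without NSi heavy 2) to 682 on heavy polysomes, 0 to 9 and 0 to 8 for heavy and light relative to input, 0 for heavy relative to light and 6768 to 8089 for NSi heavy against light. For light the lowest count came without NSi light 2, and every library left out lowered it. Enzymes called ran from 0 to 6 in input and from 0 to 1 for either polysome fraction relative to input, and stayed at 0 on light, on heavy and for heavy relative to light, and at 7 for NSi heavy against light.

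Only log2 changes of enzymes that were not called changed sign. Elovl5 in input became -0.05 without TMM and -0.02 with only the groups compared. Acly on heavy polysomes became 0.03 without the filter and 0.02 with the block within fraction. For heavy relative to light, Scd1 became 0.03 without TMM, 0.03 without the filter and 0.01 with either block, and Acaca became -0.02 with DESeq2 and with only the groups compared. Scd1 between NSi fractions became -0.06 without TMM. Further sign changes came with 1 library left out. In input these ran over Fads1 -0.32 to 0.06 and Elovl5 -0.07 to 0.16. On light polysomes these ran over Scd1 -0.37 to 0.03, Scd2 -0.19 to 0.31, Elovl1 -0.07 to 0.04 and Elovl6 -0.35 to 0.04. On heavy polysomes these ran over Fads2 -0.16 to 0.01, Scd1 -0.31 to 0.02, Scd2 -0.18 to 0.23, Fasn -0.12 to 0.36, Acly -0.22 to 0.15 and Elovl6 -0.20 to 0.27. For light relative to input these ran over Elovl5 -0.07 to 0.20. For heavy relative to light these ran over Fads1 -0.34 to 0.06, Scd1 -0.18 to 0.24, Scd2 -0.33 to 0.25, Fasn -0.37 to 0.17, Acaca -0.11 to 0.21 and Elovl6 -0.05 to 0.42. For NSi heavy against light these ran over Elovl6 -0.31 to 0.16.

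Depth limits genes such as Elovl4, with 0 to 7 counts in shDap5 inputs, more than the 10 enzymes, for which the spread of 3 libraries sets the precision. In fits that leave out a library, that spread is shared over all groups.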

Other observations

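The enzymes have close relatives beside them on chromosome 19, where the RefSeq annotation (GRCm38.p6) lists Fads3, Fads2 and Fads1 in a row and Scd3, Scd2, Scd4 and Scd1 in a row. The relatives were chosen for this position. Fads3 stood at 82.3 ± 2.21 CPM in NSi and 98.5 ± 6.97 CPM in shDap5 inputs (SD, n = 3 each), without overlap, and was not called (log2 0.26, SE 0.20, edgeR adjusted p = 0.535). Scd4 stood at 0.855 ± 0.0451 and 1.79 ± 0.556 CPM (log2 1.06, SE 0.35, edgeR adjusted p = 0.0801), and rose without shDap5 input 2. Scd3 stood at 1.31 ± 0.22 and 1.62 ± 0.687 CPM (log2 0.31, SE 0.34, edgeR adjusted p = 0.70). Reads shared by the 4 Scd genes may have been split or dropped in counting.

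Along the gradient of control cells, genes of fatty acid oxidation also lay toward the heavy fraction. Of 23 tested, 19 were higher on NSi heavy than on NSi light polysomes and none lower, with a median log2 difference of 1.13, where 27% of all genes tested were higher. Srebf1 was higher there as well (log2 1.67, SE 0.23, edgeR adjusted p = 1.85e-05), and Srebf2 (log2 0.55, SE 0.17, edgeR adjusted p = 0.0129). Insig1, which holds the SREBP proteins back, stood at 132 ± 44 CPM on light and 75.8 ± 46 CPM on heavy polysomes of NSi cells (log2 -0.80, SE 0.41, edgeR adjusted p = 0.112).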
